A study of Mus musculus with 60 samples.

Results

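Chemokines are small secreted proteins that attract leukocytes, and their receptors are surface proteins that couple to inhibitory G proteins, so that a cell carrying a receptor moves toward the source of its ligand. Which receptors a leukocyte carries depends on its type: Ccr6, the receptor of Ccl20, and Cxcr5, the receptor of Cxcl13, are best known on B cells and subsets of T cells, Cxcr3 and Cxcr6 on effector T cells and natural killer cells, Ccr1 on neutrophils and monocytes, and Cxcr4, the receptor of Cxcl12, on most leukocytes. Ccrl2 differs from these receptors in that it binds chemerin without the usual signal and presents it to neighbouring cells. The 7 genes were described here in whole lung, as the probe sets of the array that carry one of these symbols. All 7 were measured, by 9 probe sets among 45037, and the brightest probe set on average stood for each gene, which made them 7 of the 18193 genes tested.

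The study asked how mouse lungs respond to an inhaled aerosol of superparamagnetic iron oxide (SPIO) nanoparticles. SPIO nanoparticle exposed mice, male Balb/c, breathed the aerosol nose-only for 4 h (365 µg of particles in total), and sham controls, also male Balb/c, breathed the humidified helium, oxygen and filtered air atmosphere alone for the same time. Right diaphragmatic lobes were taken from 5 exposed and 5 sham mice at 0, 6, 24, 48, 96 and 168 h after the exposure ended, 1 array per mouse, which gave 12 groups and 60 arrays. Per the study's methods, 5 mice of each treatment among those due at 96 h also underwent plethysmography, and mice due at 168 h lived in metabolism cages on a liquid diet after the exposure, without a statement on whether the sham mice of that time did so too. The age of the mice and the day on which each group was exposed are not given in the sources used here.

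Levels are log2 values made by RMA, in which 1 unit is a doubling, and a probe set's level was compared only with itself in other mice. Differences are SPIO minus sham (CON) from limma with a standard error (SE) and Benjamini-Hochberg adjusted p over all genes, and a gene was called at an adjusted p under 0.05 with no fold minimum. Array medians lay between 5.53 and 5.64, and the level of Cxcr5 was below the median of its own array in 42 of 60 arrays, that of Cxcr3 in 5 and that of Cxcr6 in 2, so small differences of these dim genes are the least certain. In a whole lobe, fewer cells of a type and less RNA per cell cannot be told apart. A pair of arrays stood apart. Array 1 of the sham controls at 0 h had the highest Alb (14.02, against 5.27 to 11.35 in the other 59) and Xist (11.94, against 5.16 to 6.02). Such Xist goes against the study's statement that the mice were male, but this array's mean of 3 Y-linked genes lay within 6.77 to 7.97. Array 3 of the 24 h exposed mice held the lowest mean of these Y-linked genes (5.6, against 6.77 to 7.97 in the other 59). Without both arrays the same receptors were called at each time.

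At the end of the exposure 1 of the 7 receptors was higher in exposed lungs and 0 lower, beside 3.67% of all genes called in either direction at that time. At 24 h 3 of 7 were higher and 0 lower, beside 23.9% of all genes, so calls at 24 h were common over the whole table. None of the 7 was called at 6 h (1.17% of all genes), 48 h (12.5%), 96 h (1.41%) or 168 h (2.19%) by limma. At an unadjusted p under 0.05 the number of receptors was 3, 0, 4, 2, 2 and 2 over the 6 times in order. The median difference of the 7 receptors was 0.17, 0.14, 0.48, 0.18, 0.26 and -0.02 on the log2 scale at 0, 6, 24, 48, 96 and 168 h, and the median over all genes was 0.03, 0.03, 0.09, 0.04, 0.06 and 0.01. The study's methods name a test with unequal variances followed by Tukey's comparison. A stand-in that estimates the spread of each group by itself (Games-Howell) called Ccr6 at 0 h and 0 receptors at the other 5 times. Over all 18193 genes that stand-in called 283 at 0 h and 914 at 24 h, against 667 and 4356 by limma. With Tukey's comparison from the pooled spread, added after the data were seen, Ccr6 was called at 0 h and Cxcr3 at 24 h.

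**Figure D1:**
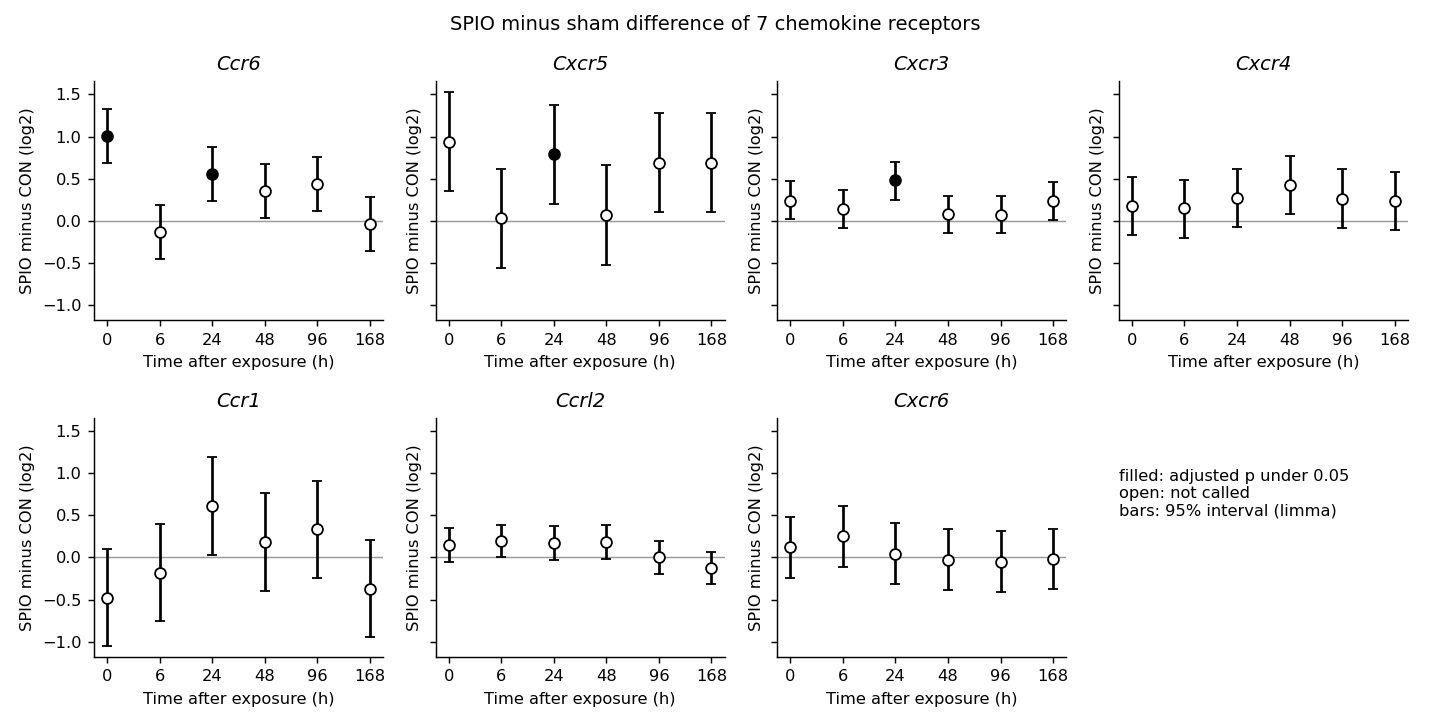
SPIO minus sham difference of each receptor (vertical axis, log2) at each time after exposure (horizontal axis, h), with 95% intervals from limma, n = 5 mice per group. Filled points passed an adjusted p under 0.05: Ccr6 at 0 h (1.01) and 24 h (0.56), Cxcr5 at 24 h (0.79) and Cxcr3 at 24 h (0.48).

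Ccr6 carried the clearest difference. At 0 h its level was 7.70, 7.54, 7.99, 7.50 and 7.87 in the lungs of exposed mice, against 6.60, 6.59, 6.58, 6.69 and 7.07 in sham lungs. Every exposed lung lay above every sham lung, with a sham maximum that was itself apart from the other 4. The means were 7.72 ± 0.21 in exposed and 6.70 ± 0.21 in sham lungs (SD, n = 5 each), a difference of 1.01 (SE 0.16, 95% interval 0.69 to 1.33) or 2.02-fold, with a limma adjusted p = 9.6e-05. The two-sided exact permutation test over the 10 lungs gave p = 0.0079, the smallest that 5 against 5 allows. Leaving out any 1 of the 10 lungs kept the difference between 0.94 and 1.10.

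The bases before both annotated starts of Ccr6 are shown because this receptor differed most, and those of Cxcr3 because it was called with it at 24 h. RefSeq (build GRCm38.p6, from the C57BL/6J strain and not Balb/c) gave promoters for 6 of the 7 receptors, over 9 start sites; Cxcr5 had none in that table. The stretches are the 150 bases just before each start, from 5′ to 3′ on the gene's strand, and capitals mark every match to 6 motifs searched: the octamer (ATGCAAAT, on the other strand ATTTGCAT), a binding sequence of the Oct factors of lymphocytes, the E-box CANNTG, the GAS element TTCNNNGAA bound by STAT factors, the ISRE of interferon response, the T-box site (AGGTGTGA) and the kappaB site of NF-kappaB factors.
Ccr6 (chr17:8235893-8236042, plus strand): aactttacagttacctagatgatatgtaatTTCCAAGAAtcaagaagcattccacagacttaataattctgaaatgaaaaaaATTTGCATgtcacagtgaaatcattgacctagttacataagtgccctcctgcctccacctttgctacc
Ccr6 (chr17:8242376-8242525, plus strand): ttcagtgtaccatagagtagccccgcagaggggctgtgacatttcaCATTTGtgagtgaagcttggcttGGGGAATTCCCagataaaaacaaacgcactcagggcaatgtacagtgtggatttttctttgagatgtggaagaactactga
Cxcr3 (chrX:101734148-101734297, minus strand): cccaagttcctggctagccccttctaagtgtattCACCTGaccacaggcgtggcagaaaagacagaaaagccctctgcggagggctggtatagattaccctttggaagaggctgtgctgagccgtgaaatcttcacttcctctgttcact

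On both strands of the 250 bases before each of 32851 RefSeq start sites, the octamer was present in 1.6%, the E-box in 66.2%, GAS in 7.02%, the ISRE in 2.98%, the T-box site in 1.12% and kappaB in 7.25%. The first Ccr6 stretch holds the octamer 68 bases before the start and a GAS match at 120 bases, and another GAS match lay at 157 bases, outside the stretch. The other Ccr6 stretch holds an E-box at 104 bases and overlapping kappaB matches at 81 and 80 bases, and that of Cxcr3 holds an E-box at 116 bases. Among the 9 start sites of the receptors the octamer and GAS were found at the first Ccr6 start alone, kappaB also at a start of Ccrl2 and at that of Ccr1, and the ISRE and the T-box site at none. These matches describe the reference letters only, and no factor was measured.

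At 6 h Ccr6 was high in both arms. The levels were 7.31, 7.97, 7.87, 8.14 and 7.96 in exposed lungs and 8.31, 7.99, 8.27, 7.63 and 7.69 in sham lungs. The groups overlapped, and the difference was -0.13 (SE 0.16, 95% interval -0.45 to 0.19, limma adjusted p = 0.86). At 24 h the levels were 7.06, 7.79, 7.37, 7.24 and 7.30 in exposed lungs, against 6.80, 6.97, 6.53, 6.91 and 6.78 in sham lungs. The groups again did not overlap, and the difference was 0.56 (SE 0.16, 1.47-fold, limma adjusted p = 0.0083), with an exact permutation p of 0.0079. Without exposed mouse 2, the highest, it was 0.45 with an adjusted p of 0.0509. At 48 h the difference was 0.35 (95% interval 0.03 to 0.67, limma adjusted p = 0.14). It was 0.44 at 96 h (0.12 to 0.76, adjusted p = 0.16) and -0.04 at 168 h (-0.36 to 0.28, adjusted p = 0.93). None of these later differences was called by limma, and the exact permutation p was 0.079, 0.016 and 0.84 in order. At 96 h 4 of 5 exposed lungs lay above every sham lung.

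**Figure D2:**
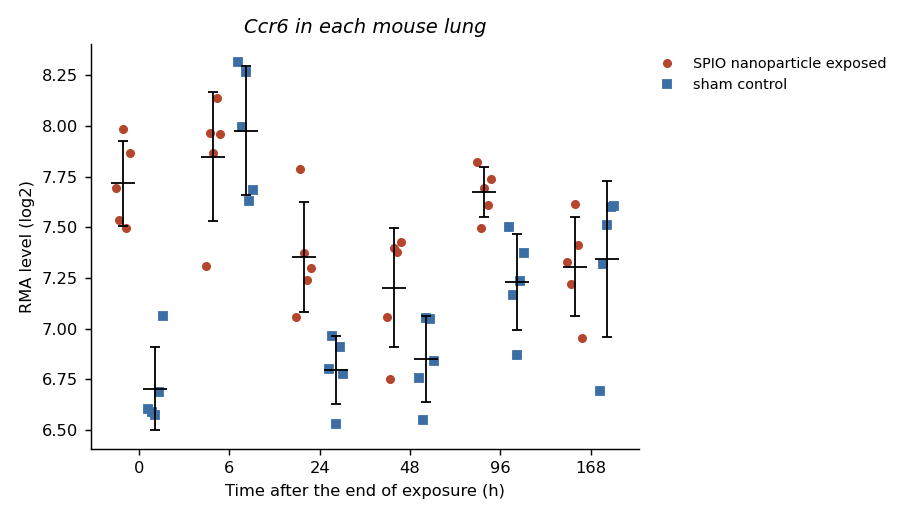
Ccr6 level (vertical axis, log2 RMA) in each lung at each time after the exposure (horizontal axis, h), exposed mice left of sham controls, with bars at the mean and SD of 5 mice. At 0 h and 24 h every exposed lung lies above every sham lung, and at 6 h both groups lie between 7.31 and 8.31.

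The exposed minus sham difference of Ccr6 was not the same at all times. The F test over the 6 times gave a limma adjusted p of 0.0054 for Ccr6, beside 8.77% of all genes called, and adjusted p of 0.22 to 0.94 for the other 6 receptors. The difference at 6 h was lower than that at 0 h by a change of -1.14 (SE 0.23, adjusted p = 0.00567), a contrast in which 0.885% of all genes were called. The difference at 168 h was lower than that at 0 h by a change of -1.05 (SE 0.23, adjusted p = 0.0496), where 0.0440% of all genes, 8 genes, were called. That call stood at the threshold, and with 1 array left out in turn it was kept in 15 of 60 fits, while the 6 h call was kept in all 60.

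Each group was also set against the other 5 groups of its arm, in the same arrays as the comparisons above. Sham Ccr6 was lower at 0 h (-0.54, SE 0.12, limma adjusted p = 0.0028, 10% of all genes called) and at 24 h (-0.43, adjusted p = 0.0083, 28.7% of all genes) than in the other sham groups. It was higher in the sham group at 6 h (0.99, SE 0.12, adjusted p = 1.7e-07, 7.67% of all genes). Exposed Ccr6 was higher at 6 h than in the other exposed groups (0.40, adjusted p = 0.049, 4.39% of all genes). Over the 6 times in order, Ccr6 averaged 7.72, 7.85, 7.35, 7.20, 7.67 and 7.31 in exposed lungs and 6.70, 7.98, 6.80, 6.85, 7.23 and 7.35 in sham lungs. The sham means thus spanned a wider range than the exposed means, and the sham groups at 0, 24 and 48 h were the lowest of the 12. Neighbours in that order of 12 overlapped in all 11 pairs, and the step between neighbours exceeded the pooled within-group SD of 0.26 in 2 of them.

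Cxcr5, which guides B cells and follicular helper T cells into lymphoid follicles, was called at 24 h only. Its level there was 4.95, 6.42, 5.20, 5.35 and 5.18 in exposed lungs, against 5.17, 4.72, 4.06, 4.99 and 4.21 in sham lungs. All 5 exposed lungs were above the sham mean, 4 of them were above every sham lung, and exposed mouse 2 stood high. The means were 5.42 ± 0.57 in exposed and 4.63 ± 0.48 in sham lungs (SD, n = 5 each), a difference of 0.79 (SE 0.29, 1.73-fold, limma adjusted p = 0.043), with an exact permutation p of 0.04. Without exposed mouse 2 the difference was 0.54 (adjusted p = 0.212), without exposed mouse 4 it was 0.81 (adjusted p = 0.0601), and without sham mouse 3 or 5 it was 0.65 (adjusted p = 0.143) or 0.68 (adjusted p = 0.12). The call at 24 h therefore rests on single lungs.

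At 0 h the difference of Cxcr5 was larger, 0.94 (SE 0.29, 1.92-fold), and just missed the threshold (limma adjusted p = 0.059). Its unadjusted limma p was smaller at 0 h (0.0023) than at 24 h (0.0096). The adjusted p also depends on the share of all genes called, 3.67% at 0 h and 23.9% at 24 h. The levels at 0 h were 5.26, 5.38, 6.09, 5.38 and 4.74 in exposed lungs, against 4.33, 4.81, 4.48, 4.43 and 4.10 in sham lungs. Only the lowest exposed lung fell within the sham range, and the exact permutation p was 0.016. Differences of 0.69 followed at 96 h (limma adjusted p = 0.25) and at 168 h (adjusted p = 0.21), with all 5 exposed lungs above the sham mean at both times, and differences of 0.03 at 6 h and 0.07 at 48 h. The effect of exposure on Cxcr5 did not pass the test of a difference between times (F test, limma adjusted p = 0.33). Cxcr5 averaged 5.37, 5.5, 5.42, 4.92, 6.15 and 5.71 in exposed lungs and 4.43, 5.47, 4.63, 4.85, 5.46 and 5.03 in sham lungs over the 6 times, and all 11 neighbouring groups in order of level overlapped.

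Cxcr3, the receptor of the interferon-induced chemokines Cxcl9, Cxcl10 and Cxcl11, was 5.92, 6.28, 6.19, 6.27 and 6.01 in exposed lungs at 24 h, against 6.06, 5.81, 5.45, 5.49 and 5.47 in sham lungs. One sham lung lay within the exposed range and the other 4 lay below it. The means of 6.13 ± 0.16 in exposed and 5.66 ± 0.27 in sham lungs differed by 0.48 (SE 0.11, 1.39-fold, limma adjusted p = 0.0017), with an exact permutation p of 0.024. The call held when any 1 of the 10 lungs was left out (difference 0.43 to 0.58). The sham group at 24 h was also lower in Cxcr3 than the other sham groups (-0.31, SE 0.09, adjusted p = 0.0074), whereas the exposed group at 24 h was not called against the other exposed groups. Over the 6 times Cxcr3 averaged 6.00, 6.05, 6.13, 6.11, 6.13 and 6.27 in exposed lungs and 5.76, 5.92, 5.66, 6.04, 6.06 and 6.04 in sham lungs. At the other times Cxcr3 differed by 0.24, 0.14, 0.08, 0.07 and 0.23 at 0, 6, 48, 96 and 168 h, none called. The effect at 24 h was not shown to differ from the others (F test, limma adjusted p = 0.31).

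**Figure D3:**
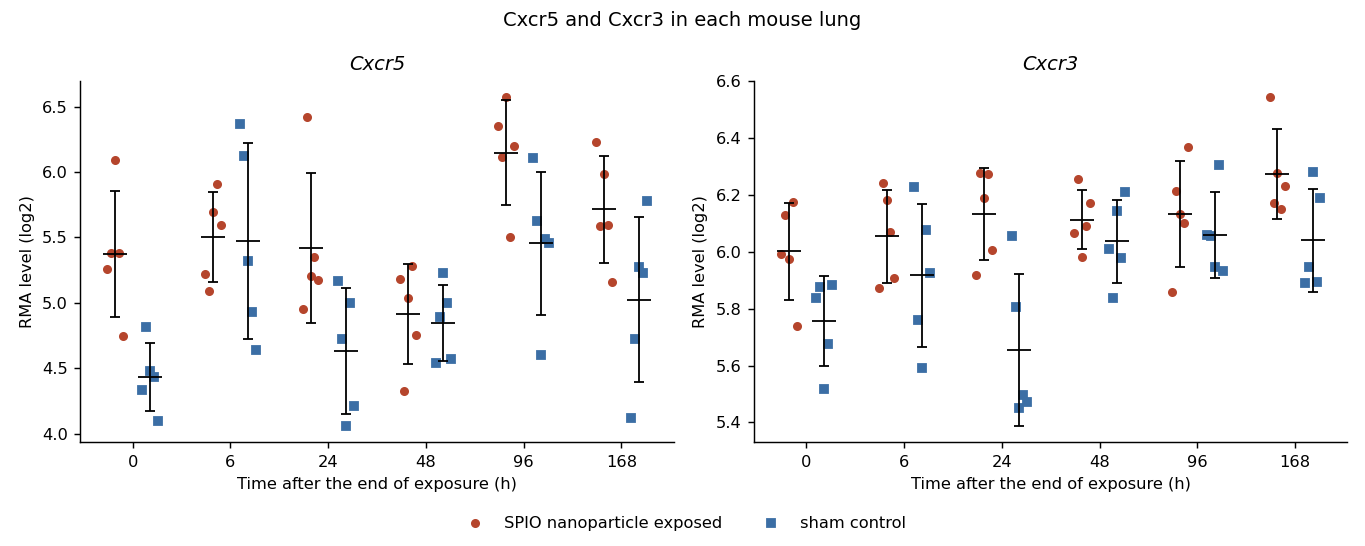
Cxcr5 and Cxcr3 levels (vertical axes, log2 RMA) in each lung by time after exposure (horizontal axes, h), exposed mice left of sham controls, with mean and SD of 5 mice. At 24 h 4 of 5 exposed lungs lie above every sham lung for Cxcr5, and 4 of 5 sham lungs lie below every exposed lung for Cxcr3.

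Cxcr4 averaged 8.76, 8.73, 8.76, 8.78, 8.96 and 8.74 in exposed lungs and 8.59, 8.59, 8.48, 8.35, 8.70 and 8.50 in sham lungs over the 6 times. The difference was 0.17, 0.15, 0.27, 0.43, 0.26 and 0.24, above 0 at every time, and limma called it at none. The largest difference was at 48 h, where its level was 9.02, 8.35, 8.89, 9.14 and 8.49 in exposed lungs and 8.69, 8.32, 8.44, 8.53 and 7.77 in sham lungs. The groups overlapped (adjusted p = 0.094, 95% interval of the difference 0.08 to 0.77).

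Ccr1 was called between times of both arms but not between exposed and sham lungs. At 6 h it averaged 7.49 ± 0.18 in exposed and 7.67 ± 0.37 in sham lungs (SD, n = 5 each), the 2 lowest of the 12 groups, and each was lower than the rest of its arm (-1.10, limma adjusted p = 0.0011, in exposed lungs and -0.87, adjusted p = 0.0095, in sham lungs). Sham lungs at 168 h were higher than the other sham groups (0.78, adjusted p = 0.03, 5.28% of all genes called). Over the 6 times Ccr1 averaged 8.29, 7.49, 8.83, 8.85, 8.33 and 8.68 in exposed lungs and 8.76, 7.67, 8.22, 8.67, 7.99 and 9.04 in sham lungs. The exposed minus sham difference was -0.48, -0.18, 0.61, 0.18, 0.34 and -0.37, with none called. At 24 h the levels were 9.32, 7.64, 9.19, 8.34 and 9.67 in exposed lungs and 8.58, 7.33, 7.86, 8.46 and 8.86 in sham lungs. Exposed mouse 2, the highest of its group in Ccr6 and Cxcr5, was the lowest of its group in Ccr1, and without it the difference was 0.91 with an adjusted p of 0.02. The other probe set of Ccr1, 1419610_at, gave differences of the same sign at all 6 times, with none called.

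Ccrl2 and Cxcr6 had the smallest differences. Ccrl2 averaged 10.11, 10.09, 9.93, 9.96, 9.88 and 9.81 in exposed and 9.97, 9.89, 9.76, 9.78, 9.87 and 9.93 in sham lungs over the 6 times, and Cxcr6 averaged 6.04, 6.24, 6.08, 6.10, 6.25 and 6.38 in exposed and 5.92, 5.99, 6.04, 6.13, 6.30 and 6.40 in sham lungs. Ccrl2 differed by between -0.12 and 0.19, with SE of 0.10 at each time, and Cxcr6, which binds Cxcl16, by between -0.05 and 0.25, with SE of 0.18 at each time. None was called, and the 95% intervals left room for differences of up to 0.39 for Ccrl2 and 0.61 for Cxcr6, both at 6 h. The other probe set of Cxcr6, 1422812_at, disagreed in sign with the main probe set at 24, 96 and 168 h. It gave -0.25 against 0.04, 0.17 against -0.05 and 0.02 against -0.02, again with none called.

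**Figure D4:**
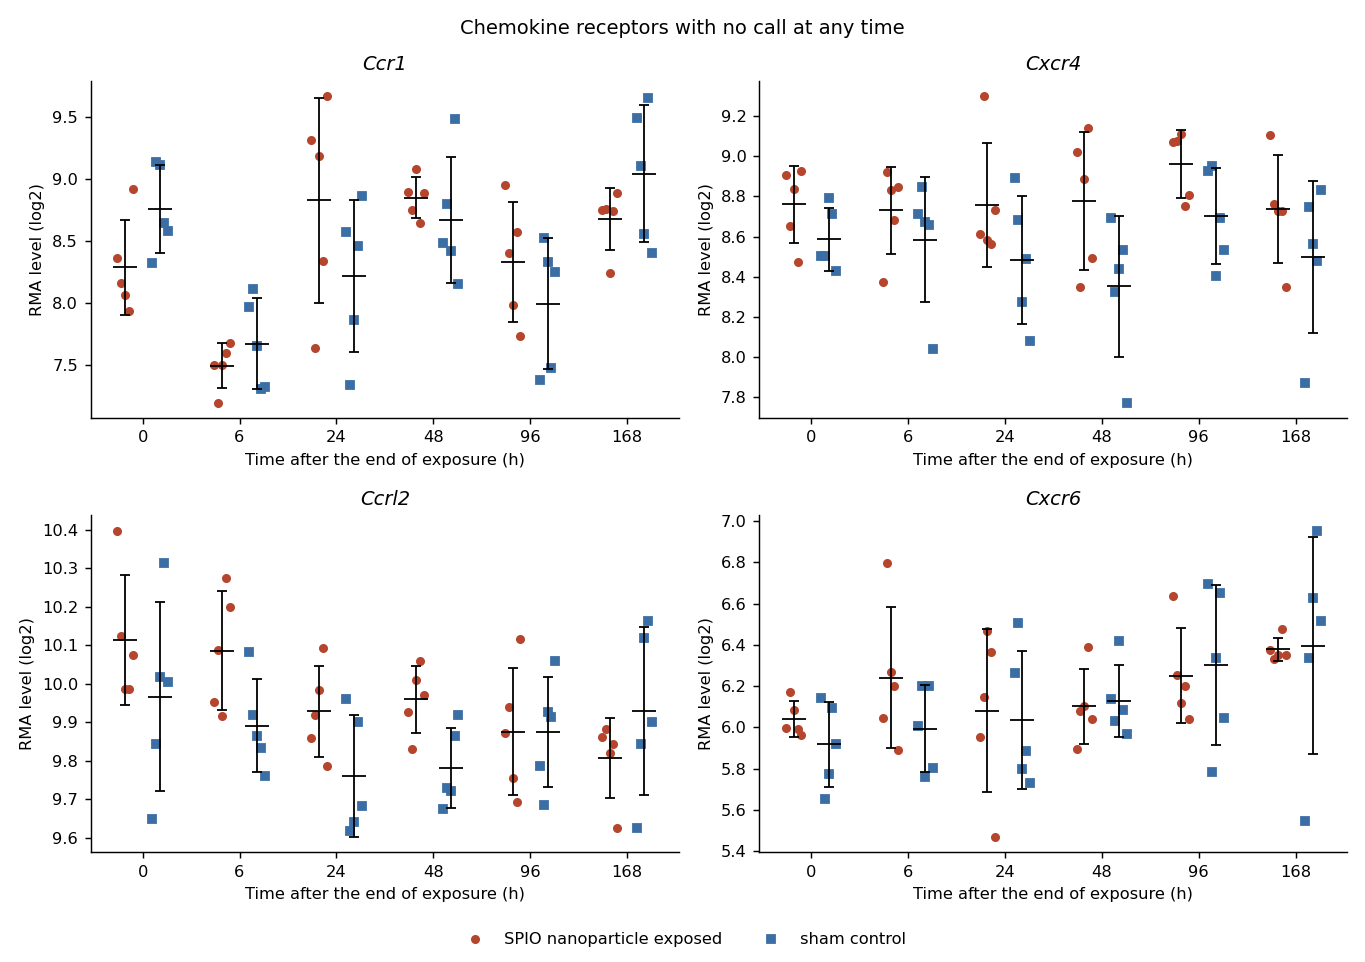
Ccr1, Cxcr4, Ccrl2 and Cxcr6 levels (vertical axes, log2 RMA) in each lung by time after exposure (horizontal axes, h), exposed mice left of sham controls, with mean and SD of 5 mice. Both Ccr1 groups are lowest at 6 h (7.49 in exposed and 7.67 in sham lungs), and the groups overlap in every panel at every time.

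The ligands of these receptors were called at partly other times, which does not show that their differences changed between times. Of 13 ligands, 1 was higher at 0 h (3.67% of all genes called), 2 at 6 h (1.17%) and 2 at 24 h (23.9%). At 48 h 1 was higher and 1 lower (12.5% of all genes), and none was called at 96 h (1.41%) or 168 h (2.19%) by limma. Ccl20, the ligand of Ccr6, averaged 7.79 ± 0.55 in exposed and 6.00 ± 0.62 in sham lungs at 6 h, with no overlap, a difference of 1.79 (SE 0.37, 3.46-fold, limma adjusted p = 0.0034), at the time when Ccr6 did not differ. At 0 h, when Ccr6 differed most, Ccl20 averaged 8.39 in exposed and 7.26 in sham lungs (difference 1.13, adjusted p = 0.07). Ccl3, which binds Ccr1, was higher by 1.13 at 0 h (adjusted p = 0.0017) and by 1.35 at 6 h (adjusted p = 0.00012). The mouse chemokines Ccl6 and Ccl9, which also act on Ccr1, were higher at 24 h by 0.69 (adjusted p = 0.00037) and 1.37 (adjusted p = 8.9e-05), and Ccl6 was still higher by 0.59 at 48 h (adjusted p = 0.0039). Cxcl12, the ligand of Cxcr4, was lower at 48 h, with a difference of -0.50 (adjusted p = 0.029), the time of the largest Cxcr4 difference, but the call was lost without any 1 of 5 lungs (exposed mice 2 and 5 and sham mice 1, 2 and 3). Cxcl13, the ligand of Cxcr5, and the 3 ligands of Cxcr3 were called at no time. Their largest differences were 0.64 for Cxcl13 at 24 h (adjusted p = 0.14), 0.86 for Cxcl9 at 6 h (adjusted p = 0.28), 0.60 for Cxcl10 at 6 h (adjusted p = 0.061) and 0.39 for Cxcl11 at 6 h (adjusted p = 0.21). Exposed mouse 2 moved the 3 ligands of Cxcr3 most at 6 h, and without it the difference was 0.20 for Cxcl9, 0.33 for Cxcl10 and 0.22 for Cxcl11.

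Of the other chemokine receptors, 16 of 18 listed were measured, with 4 higher at 0 h (beside 3.67% of all genes), 2 higher at 24 h (23.9% of all genes) and 1 higher at 48 h (12.5% of all genes), and 0 lower. With 1 lung left out the counts ran from 2, without exposed mouse 3, to 4 at 0 h, and at 24 h from 1, without exposed mouse 2 or sham mouse 5, to 4. Ccr2, the receptor that draws monocytes from the blood, averaged 8.79 ± 0.27 in exposed and 7.45 ± 1.06 in sham lungs at 0 h (difference 1.34, limma adjusted p = 0.035) and was higher by 1.41 at 24 h (adjusted p = 0.0056). The 0 h call of Ccr2 was lost without any 1 of 7 of the 10 lungs, while that at 24 h was kept without each. Ccr7, which leads lymphocytes and dendritic cells to lymph nodes, was higher by 1.05 at 0 h (adjusted p = 0.013) and by 0.80 at 24 h (adjusted p = 0.018), but was not called at 0 h without exposed mouse 3 or sham mouse 5, nor at 24 h without exposed mouse 2 or sham mouse 5. Cmklr1, the signalling receptor of chemerin, which Ccrl2 also binds, was higher by 0.74 at 0 h (adjusted p = 0.00024) and by 0.46 at 48 h (adjusted p = 0.0097), and Cx3cr1, a receptor of monocytes and macrophages, by 0.67 at 0 h (adjusted p = 0.0095).

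Of 17 genes measured among 18 listed that carry the signal inside the cell, 7 were higher and 1 lower at 24 h, beside 23.9% of all genes called, and 4 were higher at 48 h, beside 12.5%, with a median difference of 0.32 at 24 h beside 0.09 over all genes. The 4 with the smallest p at 24 h were Grk6, a kinase that desensitizes receptors (0.61), Arrb1, which encodes an arrestin (0.50), the guanine nucleotide exchange factor Vav1 (0.84) and the small GTPase Rac2 (0.86), with limma adjusted p between 2.4e-05 and 0.00039. At 48 h Grk6 (0.29), Arrb1 (0.32), Arrb2 (0.46) and Elmo1, an activator of Rac (0.74), were higher, with adjusted p between 0.0022 and 0.045. Without 1 lung in turn, Grk6 was called at 48 h in 3 and Arrb1 in 4 of 10 fits. At 6 h only Rgs2, which switches off G proteins, was called, lower with a difference of -0.60 (adjusted p = 0.0096), and 0 of this list were called at 0, 96 and 168 h.

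Markers of leukocytes were counted in the same way, beside 3.67% of all genes called at 0 h and 23.9% at 24 h. Of 11 measured B cell markers, 7 were higher at 0 h, with a median difference of 1.02, and 7 at 24 h, with a median of 0.71. At the other times 0 were called by limma, and 0 were called lower at any time. The median difference was still 0.73 at 96 h (range 0.27 to 1.04), where 1.41% of all genes were called. It was -0.03 at 6 h, 0.02 at 48 h and 0.33 at 168 h. Over the 6 times their mean log2 level was 6.56, 6.5, 6.53, 6.13, 7.15 and 6.53 in exposed lungs. In sham lungs it was 5.53, 6.54, 5.86, 6.1, 6.45 and 6.13. With 1 lung left out, 6 or 7 were called at 0 h, whereas at 24 h the count was 0 without exposed mouse 2 and 1, 2, 4 and 4 without sham mouse 3, sham mouse 5, sham mouse 4 and exposed mouse 4. Their summed linear level was 1290 to 2040 in exposed and 618 to 997 in sham lungs at 0 h, with no overlap, and 1010 to 2500 in exposed and 686 to 1270 in sham lungs at 24 h. Ms4a1, which encodes the B cell surface protein CD20, was higher by 1.85 at 0 h (limma adjusted p = 0.0049), and Cd79b, a subunit of the B cell receptor, by 1.28 at 0 h (adjusted p = 0.0085) and 0.96 at 24 h (adjusted p = 0.014, but 0.079 without exposed mouse 2). Of 12 measured T cell markers, 6 were higher at 0 h, with summed levels of 1070 to 1430 in exposed and 721 to 838 in sham lungs, and 4 at 24 h, with 930 to 1410 in exposed and 877 to 1210 in sham lungs. Over the 6 times in order, the median difference of the T cell markers was 0.59, 0.06, 0.24, 0.11, 0.27 and 0.28. The T cell count fell to 1 at 0 h without exposed mouse 3 and to 1 at 24 h without exposed mouse 4, and ran up to 6 at both times. At 24 h 4 of 10 macrophage, 2 of 8 natural killer cell, 2 of 9 dendritic cell and 2 of 8 lung endothelium markers were higher. The natural killer cell, dendritic cell and endothelium counts lay near the 23.9% of all genes. At 0 h 1 of the 9 dendritic cell markers was higher and 1 lower. Over the 60 lungs the mean level of the B cell markers correlated with Cxcr5 at r = 0.93 and with Ccr6 at r = 0.74 (0.88 and 0.70 after group means were subtracted), as a description over lungs that share times and exposures. Other lists ran with these receptors as well: Cxcr5 correlated with T cell markers at 0.85 and with natural killer cell and dendritic cell markers at 0.73 each. It also correlated with markers of lymph node and thymus, a list that shares Cr2 with the B cell list, at 0.61 and of lung endothelium at 0.59. Ccr6 correlated with T cell markers at 0.63, lung endothelium at 0.56 and dendritic cells at 0.55. The part of these cells in the differences of Ccr6 and Cxcr5 was not tested.

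**Figure D5:**
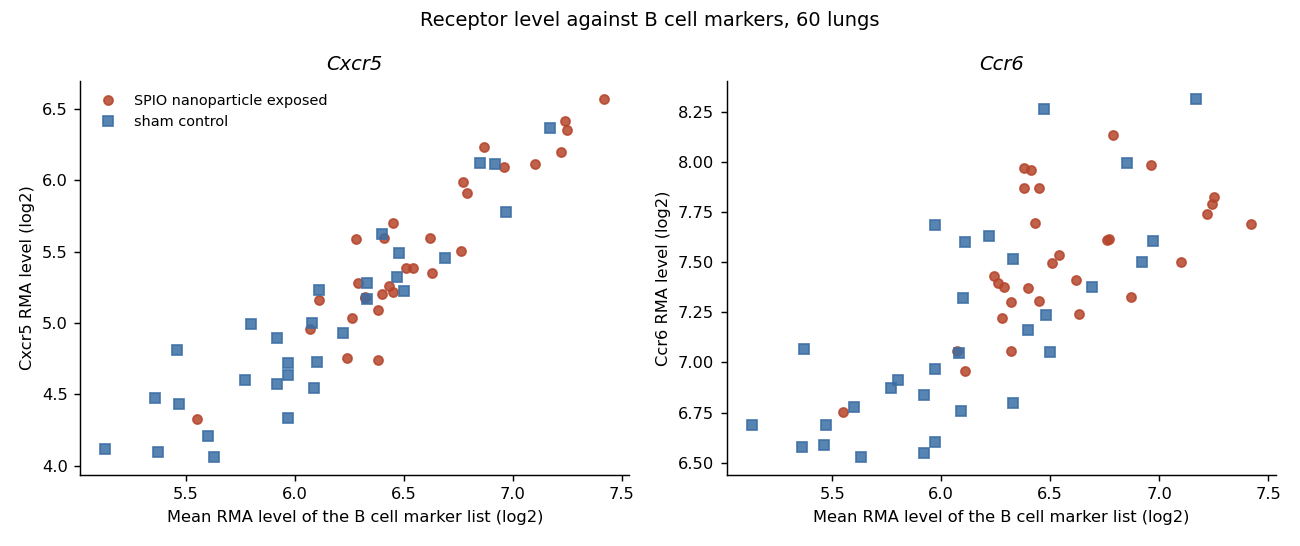
Level of Cxcr5 (left) and Ccr6 (right) in each of 60 lungs (vertical axes, log2 RMA) against the mean level of 11 B cell markers in the same lung (horizontal axes, log2 RMA), exposed mice as circles and sham controls as squares. Cxcr5 follows the markers closely (r = 0.93) and Ccr6 more loosely (r = 0.74).

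Ccr1 went with another set of cells. Its level correlated with the mean of 8 neutrophil markers at r = 0.92 over the 60 lungs and with that of 8 monocyte markers at r = 0.78. At 24 h, when 23.9% of all genes were called, the summed neutrophil markers ranged from 8310 to 37700 in exposed and from 2620 to 22400 in sham lungs. Of these markers 1 of 8 was higher (0 to 3 with 1 lung left out), a share not above that of all genes. At the same time 6 of 8 monocyte markers were higher, with summed levels of 8660 to 14600 in exposed and 6620 to 11300 in sham lungs. Of 8 markers of lymph node and thymus 1 was called at 24 h (23.9% of all genes) and 1 at 96 h (1.41% of all genes). The 24 h call was Cr2 (0.71, limma adjusted p = 0.041), which is also in the B cell list. Of 9 liver markers 0 were called at any time, but they varied widely between lungs. Their summed level at 0 h ran from 678 to 3460 in exposed and from 1020 to 35000 in sham lungs. At 96 h it ran from 798 to 3890 in exposed and from 585 to 5850 in sham lungs. The lack of calls thus does not show that liver RNA was absent. Markers of lung epithelium were present throughout, with summed levels between 130000 and 149000 in all 60 lungs. The part of these cells was not tested.

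The 3 genes whose levels were most like each receptor's were found by Pearson correlation over the 60 lungs, as a description. For Ccr1 they were Il1f9 (0.94), the neutrophil chemokine receptor Cxcr2 (0.93) and Nlrp12 (0.92). For Cxcr5 they were Fcmr, the receptor of IgM (0.92), Cd79b (0.92) and Fcer2a, the low-affinity IgE receptor of B cells (0.91). For Ccr6 they were Kctd2 (0.83), the sialyltransferase gene St6gal1 (0.82) and the immunoglobulin gene Ighv14-2 (0.80), and for Cxcr4 Ptk2b (0.76), Mllt3 (0.75) and the B cell gene Cd22 (0.75). The other receptors had looser neighbours, led by S1pr4 for Ccrl2 (0.78), Olfml2a for Cxcr3 (0.71) and Id2 for Cxcr6 (0.66). Among the receptors themselves the closest pair was Ccr6 with Cxcr5 (0.70), followed by Cxcr4 with Cxcr5 (0.66), and Ccr1 ran against Ccr6 (-0.43).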

How the data were processed

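Lungs of 60 mice were measured, 1 array each, on an Affymetrix mouse genome array. The deposited log2 values were made by the authors with RMA (background correction, quantile normalization and a summary of each probe set), in a version that the sources used here do not give. RMA scales every array to the same distribution, so the values show changes relative to the rest of the array. Of 45101 probe sets 64 controls were left out; 34945 of the rest had 1 gene symbol, 932 several and 9160 none in the platform annotation, and the brightest probe set with 1 symbol stood for each of 18193 genes. The number of arrays limits the precision. In R 4.3.3, limma 3.58.1 was fitted once over the 12 group means with 48 residual degrees of freedom, and p-values were adjusted over all genes by Benjamini-Hochberg; the F test and the contrasts between times and within an arm came from the same fit. Standard errors and 95% intervals of single genes are from limma. The exact permutation test was two-sided. Python 3.11.15 with matplotlib 3.10.9 drew the figures, and the scripts were tested on simulated data.

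The receptors, the gene lists and the tests were chosen with earlier results of these data known. All 7 receptors are named at all times. Of the ligands, other receptors and signalling genes, those that passed are named, or the 4 with the smallest p where more passed; the ligands of Cxcr5 and Cxcr3 that did not pass, Ccl20 at 0 h, the 2 markers and the motifs were chosen after their values or sequences were seen. For likeness the 3 most correlated genes were taken, with predicted transcripts passed over. Replicate numbers do not state a shared cage or day, so mice were not paired. The alternatives were a test of every probe set, averaged probe sets per gene, genes at 6 or more in 5 or more arrays, repeated quantile normalization, median centring, separate fits per time, moderation with a trend and robust variances, weighted arrays, replicate number as a block, a stand-in for the methods' test (the methods name analysis of variance with unequal variance and Tukey's comparison; Welch's form was used with a Games-Howell comparison, which allows unequal variances), fold minimums of 1.5 and 2, each array left out in turn and, added after the data were seen, both arrays that stand apart left out and Tukey's comparison from the pooled spread in place of Games-Howell.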

Additional observations from a re-analysis of the deposited data

Results flagged for a closer look

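In 6 of 84 sets of 5 lungs, 7 receptors in 12 groups, 1 lung lay far from the other 4 by Dixon's test at the 95% level, which chance gives in about 1 of 20 sets. In exposed lungs at 24 h, mouse 2 had 9.30 for Cxcr4 (8.56 to 8.73 in the other 4) and 6.42 for Cxcr5 (4.95 to 5.35). In exposed lungs at 168 h, mouse 3 had 8.24 for Ccr1 (8.74 to 8.89 in the other 4) and mouse 5 had 9.63 for Ccrl2 (9.82 to 9.88). Among sham lungs, mouse 5 at 0 h had 7.07 for Ccr6 (6.58 to 6.69 in the other 4) and mouse 5 at 6 h had 8.04 for Cxcr4 (8.66 to 8.85). The exposed minus sham difference of Ccr6 changed between times, by -1.14 at 6 h minus 0 h and by -1.05 at 168 h minus 0 h, both past the limma threshold.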

How the results depend on the processing

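The call of Ccr6 at 0 h was kept in all 14 other settings and when any of the 10 lungs was left out. With the filter on dim genes, with quantile normalization repeated and with array weights, 2 receptors were called at 0 h, Cxcr5 joining Ccr6, and array weights called 3 at 48 h (Ccr6, Ccrl2 and Cxcr4), where limma without weights called 0. At 24 h the stand-in for the methods' test called 0 receptors, and 914 of all 18193 genes against 4356 by limma. The same test with Tukey's pooled comparison called 1 receptor (Cxcr3), a minimum of 1.5-fold left 1 (Cxcr5) and a minimum of 2-fold left 0. With each lung left out in turn, the number called was 1 to 2 at 0 h, 2 to 3 at 24 h, 0 to 2 at 48 h and 0 at 6, 96 and 168 h, and the F test called 1 receptor, Ccr6, in all 60 fits. Replicate numbers did not pair the mice: over 30 pairs of equal number the correlation of deviations ran from -0.51 to 0.47, 7 exceeded 0.1, and 4 correlated best with their own number. With the replicate block, 1, 0, 2, 0, 0 and 0 receptors were called at 0, 6, 24, 48, 96 and 168 h, Cxcr5 at 24 h being lost (adjusted p = 0.079). Cxcr5 at 24 h was also lost with all probe sets tested (0.055), with array weights (0.1), with 24 h fitted alone (0.074) and in both forms of the methods' test and the 2-fold minimum, and was called in 7 of 14 other settings.

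Differences near 0 changed sign, none of them called. For Cxcr6 the mean of its probe sets gave -0.10 at 24 h and 0.06 at 96 h, quantile normalization repeated gave 0.02 at 168 h, and leaving out both arrays that stand apart gave -0.05 at 24 h. Quantile normalization gave 0.04 for Ccr6 at 168 h. With 1 lung left out, ranges that crossed 0 were -0.22 to 0.01 for Ccr6 at 6 h and -0.20 to 0.05 at 168 h. For Cxcr5 they were -0.18 to 0.25 at 6 h and -0.02 to 0.22 at 48 h. For Ccrl2 the range at 96 h was -0.06 to 0.05. Those of Cxcr6 were -0.05 to 0.20 at 24 h and -0.10 to 0.05 at 48 h. Cxcr6 also ran from -0.18 to 0.05 at 96 h and from -0.23 to 0.12 at 168 h. The cause of these changes was not tested.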
